A study of Mus musculus with 11 samples.

Results

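The CD28 family and the coinhibitory receptors of T cells were followed through 10 genes, chosen by name from what is known of their proteins, by a rule that uses no measured value, although earlier results of these data were known. They are the costimulatory receptor genes Cd28 and Icos, the inhibitory receptor genes Ctla4, Pdcd1, Btla, Lag3, Havcr2, Tigit and Cd160, and Cd274, which encodes PD-L1, the ligand of the Pdcd1 product. All 10 were among the 21957 genes of the deposited table. The cells were OT1 cells, CD8 T cells with a transgenic receptor for an ovalbumin peptide, which the labels call primed and the series design calls memory cells. They were kept at rest, the unstimulated state that the labels call T0, or were activated for 2 h with beads carrying antibodies against CD3 and CD28. The beads therefore bind the protein that 1 of the 10 genes encodes. Cells of both states received cycloheximide, which stops ribosomes on the message, for 10 min. Coding-sequence counts came from 3 unstimulated and 3 stimulated RNA libraries, and from 3 unstimulated and 2 stimulated libraries of ribosome footprints, the message fragments that ribosomes protect. The labels name no strain, age or separate culture or animal for a replicate, and p-values therefore speak of the scatter among these libraries, which may be technical.

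A T cell that meets its antigen through the T cell receptor reads these receptors to decide how strongly to respond. CD28 binds CD80 and CD86 on antigen-presenting cells and strengthens activation, whereas CTLA-4 binds the same ligands more tightly and restrains it. Activated CD8 T cells can carry several inhibitory receptors at once, and lasting expression of many of them is a known feature of exhausted cells in chronic infection and tumours.

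The libraries carried the RNA of CD8 T cells. The summed level of 9 CD8 T cell markers (Cd8a, Cd8b1 and Cd3e among them) was 3058 to 3417 CPM (counts scaled to a common library size with the TMM method) in the unstimulated and 2338 to 3689 in the stimulated RNA libraries. Summed markers of B cells reached 5.20 to 12.6 and 7.80 to 13.4 CPM, those of myeloid and dendritic cells 12.3 to 23.1 and 20.2 to 29.0 CPM, and those of NK cells 0.804 to 1.92 and 1.97 to 3.40 CPM. For CD4 and regulatory T cells the sums were 21.8 to 23.2 and 30.9 to 39.6 CPM, with means of 1.36 and 2.49 for Cd4 and 2.26 and 2.32 for Foxp3. Of these 4 genes Cd40lg, which activated T cells also express, rose from 8.34 to 17.6 CPM (edgeR adjusted p = 0.00474), and none of the 6 B cell, 10 myeloid and 3 NK cell markers tested passed (edgeR, 2 of the myeloid ones at an unadjusted p under 0.05). The part of other cells in the results was not tested. RNA libraries held 21658263 to 39346699 counts and footprint libraries 11136 to 23641, so that a count of 0 in a footprint library still allows 127 to 269 CPM. The RNA libraries were uneven in quality. Genes of olfactory and vomeronasal receptors, which T cells are not known to use, took 299, 1874 and 404 CPM in unstimulated replicates 1, 2 and 3 and 2740.4, 2017 and 681 in the stimulated ones. In those same libraries 4 genes (Gm10800, Gm10801, Gm20594 and Lars2) held 4.09, 14.9 and 5.14% and then 25.01, 22.5 and 12.8% of all counts. All 10 receptor and ligand genes were lowest in unstimulated replicate 2 among the unstimulated libraries and highest in stimulated replicate 3 among the stimulated ones. These are the unstimulated library with the most and the stimulated library with the least of this background. The share of all genes with the same order was not computed, so the order is not shown to be particular to these 10. Results were also computed without these libraries and under other scalings, and beyond that the part of these library differences was not tested. Footprint libraries held counts of olfactory and vomeronasal receptor genes as well. These were 898, 686 and 1050 CPM in unstimulated replicates 1, 2 and 3 and 863 and 423 in stimulated replicates 2 and 3. Their part in the footprint results was not tested.

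In RNA, 3 of the 10 genes rose and 2 fell within 2 h, and 5 did not pass the test (edgeR quasi-likelihood, Benjamini-Hochberg adjusted p over 18886 genes, threshold 0.05). The genes that rose were Cd274, Havcr2 and Cd160, by 1.90-fold to 2.42-fold. Those that fell were Cd28 and Ctla4, by 2.60-fold and 2.47-fold. Of all genes tested, 8.26% were called, 3.58% as higher (677) and 4.68% as lower (883). That split depends on the scaling, with 334 higher and 1364 lower under RLE factors, 1005 and 4215 under library totals and 519 and 1147 when the 4 genes of large share were left out of TMM. Without a test, the stimulated libraries lay wholly above the unstimulated ones for 4 of the 10 genes and wholly below them for 2, against 15.4% and 13.6% of all genes tested. The median log2 change was 0.16 over the 10 genes and 0.39 over all genes tested, and this general shift moved between 0.19 and 0.50 with the scaling used. The median was 0.08 with a filter at a mean of 50 counts, which keeps all 10 genes, and 0.06 without the 3 libraries of most background. What the shift rests on was not tested. Cd28 and Ctla4 lay far under each of these medians. The plot of RNA change by gene shows this spread.

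**Figure D1:**
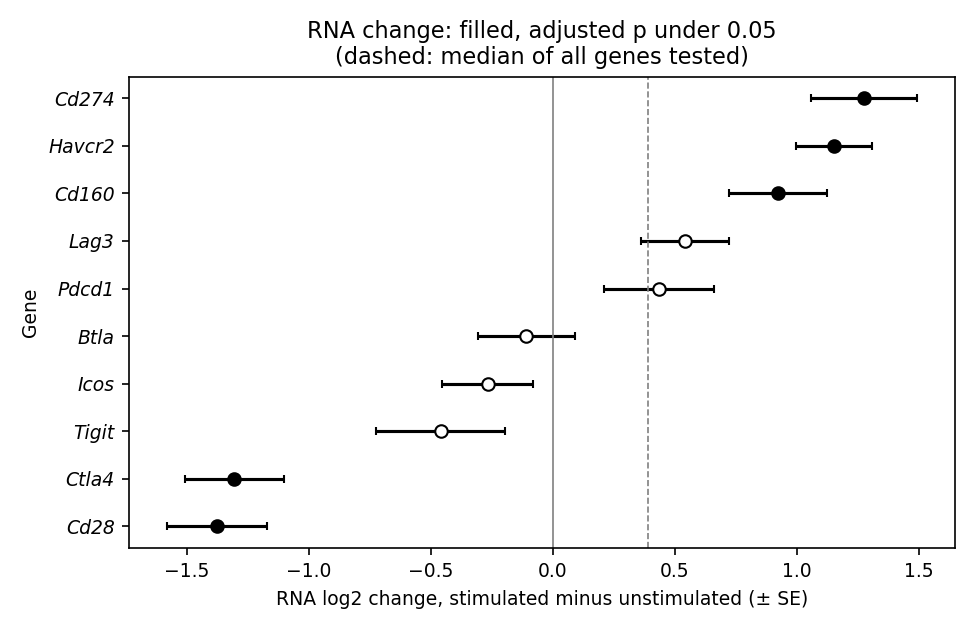
Log2 change in RNA (x axis, stimulated minus unstimulated, bar ± SE, 3 libraries per group) for each of the 10 genes (y axis). Filled points passed an adjusted p of 0.05 and open points did not. The dashed line is the median of all genes tested, 0.39. Cd28 and Ctla4 stand apart at the low end, and Cd274, Havcr2 and Cd160 at the high end.

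Promoter windows are shown for the genes of this set that passed the RNA test and are listed in the RefSeq promoter table (build GRCm38.p6), and for Pdcd1, whose footprints are described further on. The table had entries for 7 of the 10 genes, in 8 windows. Each sequence holds the 250 bases before the listed start, 5′ to 3′ on the gene's strand. Capitals mark matches, on either strand, to the letters GGAAA (core of NFAT sites, which reads TTTCC on the other strand), TGANTCA (AP-1) and GGG, 5 bases of any kind and CC (NF-kappaB), which are sites of factors known to act in T cell activation.
Ctla4, chr1:60908775-60909024, plus strand: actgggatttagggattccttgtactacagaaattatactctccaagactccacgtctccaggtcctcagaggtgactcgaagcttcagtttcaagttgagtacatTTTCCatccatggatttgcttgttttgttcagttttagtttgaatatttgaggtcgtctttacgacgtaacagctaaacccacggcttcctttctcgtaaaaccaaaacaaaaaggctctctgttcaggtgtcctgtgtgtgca
Pdcd1, chr1:94052554-94052803, minus strand: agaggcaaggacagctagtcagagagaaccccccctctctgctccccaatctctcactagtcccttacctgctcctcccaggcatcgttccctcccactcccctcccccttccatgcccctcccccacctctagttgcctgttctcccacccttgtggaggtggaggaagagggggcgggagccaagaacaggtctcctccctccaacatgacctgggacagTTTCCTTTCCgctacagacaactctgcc
Havcr2, chr11:46454681-46454930, plus strand: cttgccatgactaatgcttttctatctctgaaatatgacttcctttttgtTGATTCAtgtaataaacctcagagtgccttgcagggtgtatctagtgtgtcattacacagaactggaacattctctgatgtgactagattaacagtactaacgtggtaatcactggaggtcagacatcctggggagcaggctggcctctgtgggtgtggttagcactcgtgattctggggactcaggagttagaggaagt
Cd160, chr3:96814522-96814771, minus strand: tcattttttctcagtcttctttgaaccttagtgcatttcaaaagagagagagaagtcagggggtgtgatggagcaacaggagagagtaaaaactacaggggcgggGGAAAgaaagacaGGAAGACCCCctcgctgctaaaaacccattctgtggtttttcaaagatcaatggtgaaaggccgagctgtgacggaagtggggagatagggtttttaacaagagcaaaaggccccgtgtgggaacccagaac
Cd274, chr19:29367188-29367437, plus strand: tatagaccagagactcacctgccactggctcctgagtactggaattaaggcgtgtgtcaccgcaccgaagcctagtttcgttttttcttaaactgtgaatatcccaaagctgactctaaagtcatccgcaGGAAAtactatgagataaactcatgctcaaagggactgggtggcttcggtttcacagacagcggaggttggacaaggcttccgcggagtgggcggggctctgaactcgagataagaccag

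The Ctla4 window held 1 match to the NFAT core, with its first base 144 bases before the start, and the Cd274 window held 1 at 120 bases. In Pdcd1 a pair of such matches lay side by side, at 28 and 23 bases. Havcr2 had no NFAT match but held the AP-1 letters at 200 bases. The printed Cd160 window held an NFAT core at 145 bases and an NF-kappaB match at 132 bases, which do not overlap. It also held TTCNNNGAA, the letters of a STAT site, at 234 bases, which is not in capitals. The other Cd160 window, chr3:96829352-96829601, held none of these letters, nor did the Btla window, and Tigit held the NFAT core at 110 and 13 bases. That other Cd160 window borders the 5′ end of the annotated gene span (96798763 to 96829351), whereas the printed one lies inside the span. The Cd274, Tigit and Btla windows also lie inside their gene spans, before internal starts. These letters are common. Among all 32851 promoters of the table, 55.6% held the NFAT core, 45.8% the NF-kappaB letters, 6.75% the AP-1 letters, 7.02% the STAT letters and 2.98% GAAA, 2 bases of any kind and GAAA, the letters of interferon-responsive sites, of which none of the 8 windows had a match. The NFAT core was present in the printed windows of Ctla4, whose RNA fell, and of Cd160 and Cd274, whose RNA rose.

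Cd28 (ENSMUSG00000026012, chromosome 1, 60746388 to 60773359) encodes the receptor that the beads engage. Its RNA was at 637, 551 and 615 CPM in the unstimulated replicates 1, 2 and 3 and at 207, 206 and 282 CPM in the stimulated ones. The highest stimulated library was far below the lowest unstimulated library. The mean fell from 601 ± 44.5 to 232 ± 43.4 CPM (SD, n = 3 per group), a log2 change of -1.38 ± 0.205 (SE) with an adjusted p of 0.00236 (edgeR). In bulk RNA, fewer cells that express a gene and less RNA per cell cannot be told apart.

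Icos (ENSMUSG00000026009, chromosome 1, 60960773 to 61000322) encodes the other costimulatory receptor of the family. It measured 119, 107 and 119.9 CPM unstimulated and 82.2, 87.1 and 118 CPM stimulated. Stimulated replicates 1 and 2 lay under every unstimulated library, whereas stimulated replicate 3 lay among them. The means of 115 ± 7.32 and 95.7 ± 19.4 CPM gave a log2 change of -0.27 ± 0.188, which did not pass (edgeR adjusted p = 0.366). It passed without unstimulated replicate 2 (log2 -0.59, edgeR adjusted p = 5.5e-05) and without stimulated replicate 3 (-0.45, adjusted p = 0.00639). With all 6 libraries it passed under library totals without TMM (-0.45, adjusted p = 0.00952) and under TMM on genes of at least 10 CPM (-0.17, adjusted p = 0.00413). These settings called many genes. Without unstimulated replicate 2, 6851 were higher and 6173 lower of 19219 tested, and without stimulated replicate 3, 984 and 4271 of 19468. Library totals gave 1005 and 4215 of 18886, and TMM on genes of at least 10 CPM 3152 and 2928 of 18886.

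Ctla4 (ENSMUSG00000026011, chromosome 1, 60909025 to 60915832) encodes the inhibitory counterpart of CD28. Its levels were 449, 430.0 and 450.4 CPM in the unstimulated libraries and 156, 162 and 221 CPM in the stimulated ones. No libraries overlapped, and the unstimulated values were close together. The mean fell from 443 ± 11.5 to 179 ± 36.1 CPM, a log2 change of -1.30 ± 0.202 (edgeR adjusted p = 0.00294). Cd28 and Ctla4 kept an adjusted p of at most 0.00738 and 0.0120 under each of 16 alternative settings.

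Cd28, Ctla4 and Icos are neighbours on mouse chromosome 1. In the RefSeq annotation 135665 bases lie between Cd28 and Ctla4, with 6 annotated genes and 0 protein-coding ones among them, and 44940 bases lie between Ctla4 and Icos, with 2 annotated genes and 0 protein-coding. Ratios of counts within a library do not depend on scaling between libraries, and the pairs given here were chosen after their values were seen. Ctla4 counts were 0.705, 0.780 and 0.732 of Cd28 counts in the unstimulated libraries and 0.753, 0.784 and 0.785 in the stimulated ones. The ratio overlapped between the states, so the pair fell by similar factors. Icos counts were 0.187, 0.194 and 0.195 of Cd28 counts before and 0.398, 0.422 and 0.419 after stimulation, higher in each stimulated library.

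Pdcd1 (ENSMUSG00000026285, chromosome 1, 94038305 to 94052553) encodes PD-1, an inhibitory receptor that recruits the phosphatase SHP-2. Its RNA was at 151, 131 and 150.2 CPM unstimulated and at 139, 194 and 253 CPM stimulated. Stimulated replicates 2 and 3 lay above the unstimulated libraries and replicate 1 lay among them. The means were 144 ± 11.2 and 195 ± 57.0 CPM, and the log2 change of 0.44 ± 0.225 did not pass (edgeR adjusted p = 0.289). It passed with a filter at a mean of 50 counts (log2 0.49, edgeR adjusted p = 0.0246) and under TMM on genes of at least 10 CPM (0.52, adjusted p = 0.00178). That filter called 2287 genes higher and 2645 lower of 12611 tested, and that scaling 3152 and 2928 of 18886.

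Btla (ENSMUSG00000052013, chromosome 16, 45223705 to 45252895) encodes an inhibitory receptor for HVEM, a member of the tumour necrosis factor receptor family. It measured 199, 168 and 192 CPM unstimulated and 142, 165 and 211 CPM stimulated, and the libraries of both states were interleaved. The means were 186 ± 16.6 and 173 ± 35.2 CPM, with a log2 change of -0.11 ± 0.199 (edgeR adjusted p = 0.696). Without unstimulated replicate 2 the change was -0.45 with an edgeR adjusted p of 0.00131. In that setting 6851 genes were called higher and 6173 lower of 19219 tested.

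Lag3 (ENSMUSG00000030124, chromosome 6, 124904359 to 124912434) encodes a CD4-like receptor for MHC class II. Its levels of 26.6, 24.2 and 28.5 CPM were followed by 31.5, 34.9 and 49.1 CPM. Every stimulated library was above every unstimulated one, although the nearest values were close. The means of 26.4 ± 2.18 and 38.5 ± 9.34 CPM gave a log2 change of 0.54 ± 0.181, which did not pass (edgeR adjusted p = 0.0968). It passed without unstimulated replicate 2, at a smaller change of 0.21 (edgeR adjusted p = 0.0414), and without stimulated replicate 3, at 0.32 (adjusted p = 0.0284). With all 6 libraries it passed under library totals without TMM (adjusted p = 0.0384), TMM on genes of at least 10 CPM (2.3e-05), a filter at a mean of 50 counts (0.00183) and limma voom (0.0459). Over all genes, library totals called 1005 higher and 4215 lower and limma voom 1867 and 1520, each of 18886. The 10 CPM scaling called 3152 and 2928 of 18886, and the filter 2287 and 2645 of 12611. Without unstimulated replicate 2 the counts were 6851 and 6173 of 19219, and without stimulated replicate 3, 984 and 4271 of 19468.

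Havcr2 (ENSMUSG00000020399, chromosome 11, 46454931 to 46481255) encodes TIM-3, an inhibitory receptor often carried by effector and exhausted CD8 T cells. It was at 21.9, 20.9 and 21.2 CPM in the unstimulated libraries and at 43.2, 43.1 and 56.0 CPM in the stimulated ones. The unstimulated values hardly differed, and the stimulated ones were well above them. The mean rose from 21.3 ± 0.535 to 47.4 ± 7.46 CPM, a log2 change of 1.15 ± 0.156 (edgeR adjusted p = 0.00131). The call held under each of the 16 alternatives, with an adjusted p of at most 0.0142.

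Tigit (ENSMUSG00000071552, chromosome 16, 43626137 to 43665125) encodes an inhibitory receptor for the poliovirus receptor PVR. Its RNA was low, at 6.93, 6.08 and 7.45 CPM unstimulated and 4.50, 4.14 and 6.26 CPM stimulated. Stimulated replicate 3 lay among the unstimulated libraries and the other two lay below. The means were 6.82 ± 0.689 and 4.96 ± 1.13 CPM, with a log2 change of -0.46 ± 0.265 (edgeR adjusted p = 0.322). Without unstimulated replicate 2 its edgeR adjusted p was 0.00658, in a setting that called 6851 genes higher and 6173 lower of 19219. In the RefSeq annotation Tigit overlaps the protein-coding gene Zbtb20 (59.3 and 45.8 CPM), and whether the counts were made by strand is not given in the sources used here.

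Cd160 (ENSMUSG00000038304, chromosome 3, 96798763 to 96829351) encodes a receptor for HVEM, as Btla does. It was at 97.9, 83.3 and 92.1 CPM before and at 140.2, 164 and 214 CPM after stimulation, with no overlap. The mean rose from 91.1 ± 7.34 to 173 ± 37.9 CPM, a log2 change of 0.92 ± 0.199 (edgeR adjusted p = 0.0152). Of the 5 calls this one was lost in the most settings, 6 of 16. Among them it was lost without unstimulated replicate 3 (edgeR adjusted p = 0.183), without stimulated replicate 1 (0.139) and without stimulated replicate 2 (0.232). With all 6 libraries it was lost with DESeq2 (adjusted p = 0.0765), with RLE scaling (0.111) and with no filter on low counts (0.0702). Cd160 counts were 0.491, 0.497 and 0.481 of Btla counts in the unstimulated libraries and 0.985, 0.993 and 1.01 in the stimulated ones. Within a library, then, the balance of these HVEM receptors moved to near equal counts, in each stimulated library.

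Cd274 (ENSMUSG00000016496, chromosome 19, 29362107 to 29388095) encodes PD-L1, which T cells can carry themselves. Its RNA was at 137, 116 and 131 CPM in the unstimulated libraries and at 231, 314 and 385 CPM in the stimulated ones, with no overlap. The mean rose from 128 ± 10.9 to 309.9 ± 77.4 CPM, a log2 change of 1.28 ± 0.218 (edgeR adjusted p = 0.00489). Without stimulated replicate 2 the edgeR adjusted p was 0.0597, the 1 alternative of 16 in which the call was lost. Cd274 overlaps the protein-coding gene Plgrkt in the annotation, and Plgrkt itself did not pass, with means of 68.9 and 55.7 CPM (log2 -0.31, edgeR adjusted p = 0.321). Myeloid and dendritic cells can also carry PD-L1. Their 10 markers summed to 12.3 to 23.1 CPM unstimulated and 20.2 to 29.0 CPM stimulated, and the part of such cells in the change of Cd274 was not tested.

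Relative to its receptor gene, Cd274 also shifted within libraries. Its counts were 0.903, 0.881 and 0.875 of Pdcd1 counts before and 1.66, 1.62 and 1.52 after stimulation. Relative to Cd28 they went from 0.215, 0.210 and 0.213 to 1.12, 1.52 and 1.37. Pdcd1 counts were 0.337, 0.306 and 0.333 of Ctla4 counts before and 0.893, 1.20 and 1.14 after. Havcr2 counts were 0.823, 0.863 and 0.745 of Lag3 counts before and 1.37, 1.23 and 1.14 after. In each of these 4 pairs no unstimulated library reached a stimulated one. The plot of RNA levels by library shows the 10 genes side by side. Levels are not compared between genes, since counts depend on coding length, which was not analysed here.

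**Figure D2:**
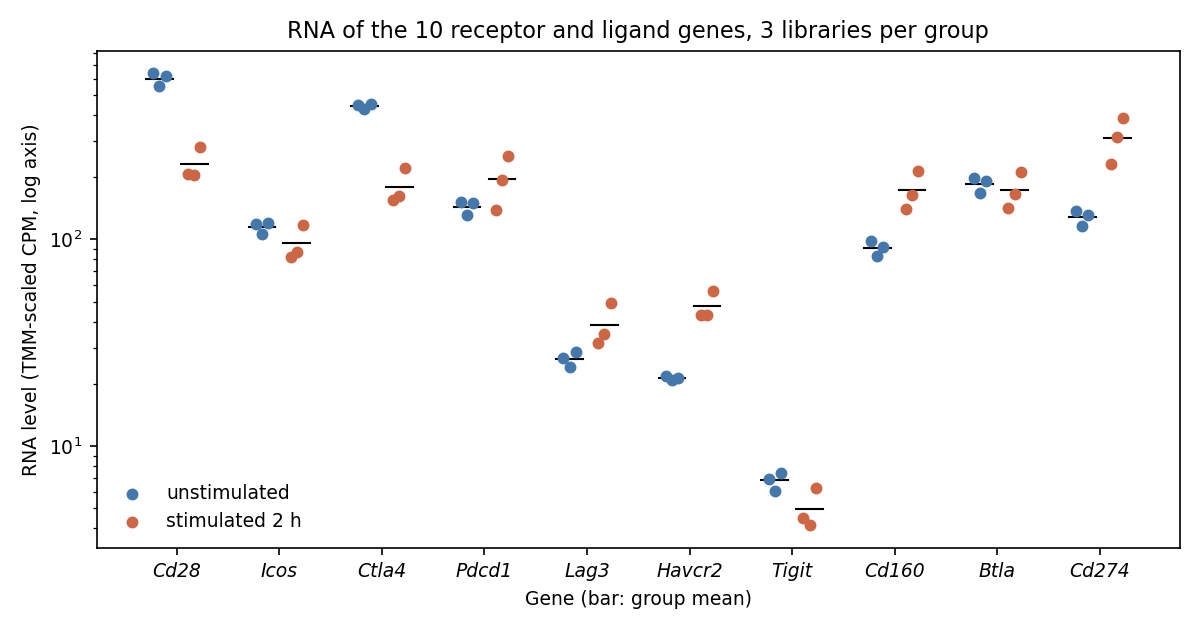
RNA level (y axis, TMM-scaled CPM, log axis) of the 10 genes (x axis) in each of 3 unstimulated (blue) and 3 stimulated (orange) libraries, replicates 1 to 3 from left to right, with the group mean as a bar. Stimulated replicate 3 is the highest stimulated library for every gene, and the states do not overlap for Cd28, Ctla4, Lag3, Havcr2, Cd160 and Cd274.

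The 3 RNA libraries with the most counts in olfactory and vomeronasal receptor genes are unstimulated replicate 2 and stimulated replicates 1 and 2. Without them, an alternative added after the data were seen, unstimulated replicates 1 and 3 were set against stimulated replicate 3 alone, whose spread is then assumed to be like that of the other group. All 10 genes then passed, 5 as higher and 5 as lower. Cd28, Ctla4, Icos, Tigit and Btla were lower, and Cd274, Havcr2, Cd160, Lag3 and Pdcd1 were higher, the same directions as with all libraries. In that setting 1943 genes were called higher and 5398 lower of 18020 tested, against 677 and 883 of 18886 with all 6 libraries, so the larger count is not particular to these genes.

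Footprints of the 10 genes were few, 175 in all, 77 in the unstimulated and 98 in the stimulated libraries. In footprints 9.38% of the 256 genes tested were called (24 genes, and 54 at an unadjusted p under 0.05, edgeR), and for translational efficiency, the change of footprints relative to RNA, 3.14% of 255. Of the 10 genes, Cd28 alone had enough footprints for the filter on low counts. It was not called in either. With no filter, 0 of the 9 genes with a footprint were called in footprints and 0 in efficiency by edgeR, where 0.103% and 0.0376% of 10647 and 10636 genes were called. At an unadjusted p under 0.05 the no-filter fits had 0 of the 9 in footprints and 1 in efficiency by edgeR, and 0 and 2 by DESeq2. Over all genes of those fits, 2.33% and 8.11% were under that p by edgeR and 0.873% and 9.71% by DESeq2.

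Cd28 had 0, 10 and 11 footprints in the unstimulated replicates 1, 2 and 3 and 2 and 4 in the stimulated replicates 2 and 3. The unstimulated replicate 1 had none, so the groups overlap. The log2 change of -1.84 ± 1.43 in footprints had an edgeR adjusted p of 0.490, and that of -0.72 ± 0.82 in efficiency an adjusted p of 0.679. Its share of all footprints after stimulation was 0.262 of the share before, with a 95% interval of 0.0866 to 0.672 for counting error alone. Replicate 1, which differs from the other two unstimulated libraries, is not covered by that interval.

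Pdcd1 had 1, 2 and 2 footprints unstimulated and 8 and 11 stimulated. Scaled to library size these were 104, 132 and 124 CPM against 369.9 and 458 CPM. Both stimulated libraries were above the 3 unstimulated ones. Of 6 genes of the set with at least 20 footprints it was the 1 whose stimulated libraries lay wholly above, against 15.5% of 884 genes with that many. Its footprint share was 3.49 times the unstimulated share (95% counting interval 1.26 to 11.95), and the model over libraries gave a log2 change of 1.97 ± 1.01 that did not pass (edgeR without the low-count filter, adjusted p = 0.763). The RNA fold of Pdcd1 was 1.35, which did not pass either.

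Ctla4 had 4, 2 and 7 footprints before and 5 and 11 after stimulation. The libraries overlap, and the counted share after stimulation was 1.13 of that before (95% counting interval 0.509 to 2.55), whereas its RNA fell 2.47-fold. As efficiency this is a log2 change of 1.67 ± 0.70 with an unadjusted p of 0.0166 and an adjusted p of 0.561 (edgeR without the low-count filter). DESeq2 gave 1.76 with an adjusted p of 0.106. The difference between the footprint and the RNA change of Ctla4 was therefore not called by either tool. For Pdcd1 the same fits gave 1.56 ± 0.84 (edgeR adjusted p = 0.561) and 1.66 (DESeq2 adjusted p = 0.273).

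The remaining genes had footprint counts that overlapped between the states. Cd274 had 9, 0 and 2, then 10 and 10. Lag3 had 4, 4 and 0, then 5 and 14. In both genes an unstimulated library with no footprint stood beside 1 with several. Cd160 had 1, 7 and 3, then 6 and 7, and Tigit had 2, 0 and 4, then 0 and 2. Havcr2, whose RNA rose, had 0, 0 and 1, then 0 and 2, and the interval of its footprint fold, 0.0956 to 108, shows that a change of that size was not detectable at this depth. Btla had 0, 0 and 1, then 0 and 1, and Icos had none in any of the 5 libraries. The plot of footprint counts by library shows how far single libraries of a state differed.

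**Figure D3:**
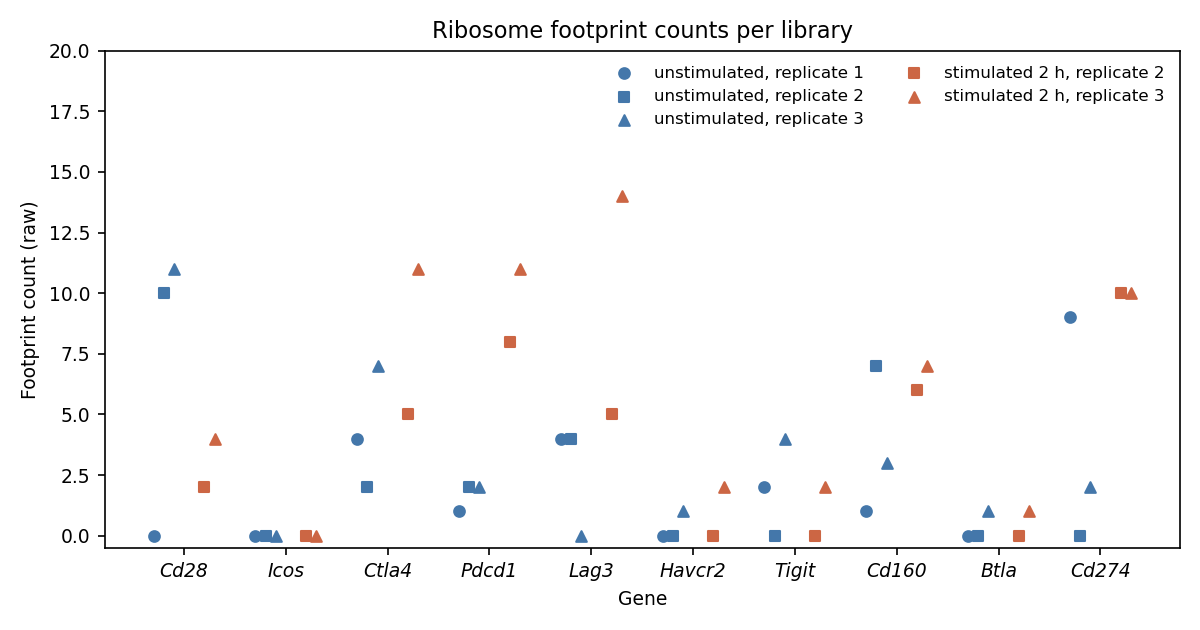
Raw ribosome footprint counts (y axis) of the 10 genes (x axis) in 3 unstimulated (blue) and 2 stimulated (orange) libraries, the symbol giving the replicate. Counts are not scaled, and the stimulated libraries were deeper (20848 and 23641 counts in all, against 11136 to 15237). Pdcd1 had 1, 2 and 2 counts unstimulated and 8 and 11 stimulated, and its change did not pass. Of all genes with at least 20 footprints, 15.5% had scaled stimulated libraries wholly above the unstimulated ones. Icos is at 0 in all 5 libraries.

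The genes differed among themselves in how many footprints they had for their RNA. For each gene the expected number was its share of RNA counts times the footprint total, a ratio in which the length of the gene cancels. For genes in general the median of observed over expected was 0.736 (quartiles 0.355 to 1.31, 4243 genes with at least 5 expected footprints over both states). Intervals given here are exact Poisson intervals of the footprint count and cover counting error only. These ratios were not tested over libraries.

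Btla and Icos had few footprints for their RNA. Btla had 2 where 17.7 were expected, a ratio of 0.113 (interval 0.0137 to 0.407), with 1 of 8.75 unstimulated and 1 of 8.98 stimulated. Icos had 0 of 10.4 expected, which allows a ratio of up to 0.355 by the exact Poisson limit. Such values occur in other genes. Of 2250 genes with at least 10 expected footprints, 3.91% had none and 9.29% had a ratio at or under that of Btla.

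Lag3 and Tigit lay at the other end. Lag3 had 27 footprints where 3.24 were expected, a ratio of 8.34 (interval 5.50 to 12.1). The ratio was 6.44 (2.78 to 12.7) unstimulated and 9.53 (5.74 to 14.9) stimulated, on only 1.24 and 1.99 expected footprints. Its counts by library were uneven, 4, 4 and 0 unstimulated and 5 and 14 stimulated, which the intervals do not cover. Of 5851 genes with at least 3 expected footprints, 0.103% had a ratio as high. Tigit had 8 footprints where 0.578 were expected, a ratio of 13.8 (interval 5.97 to 27.3), on a base too small for that comparison. Whether footprints of Zbtb20, which overlaps it, were counted for Tigit was not tested.

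Between them, Cd160 had 24 of 13.2 expected, a ratio of 1.81 (interval 1.16 to 2.70) that 11.3% of genes with at least 10 expected footprints reached or passed. Cd274 had 31 of 22.03, a ratio of 1.41 (0.956 to 2.00). Havcr2 had 3 of 3.49, and its interval of 0.177 to 2.51 spans the quartile range. Cd28 had 21 of 28.3 unstimulated, a ratio of 0.743 (0.460 to 1.14), and 6 of 12.1 stimulated, 0.497 (0.182 to 1.08). Ctla4 went from 13 of 20.9, a ratio of 0.623 (0.332 to 1.07), to 16 of 9.33, a ratio of 1.71 (0.980 to 2.78). Pdcd1 went from 5 of 6.78, 0.737 (0.239 to 1.72), to 19 of 10.0, 1.89 (1.14 to 2.95). For Cd28, Ctla4 and Pdcd1 the intervals of the states overlap.

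**Figure D4:**
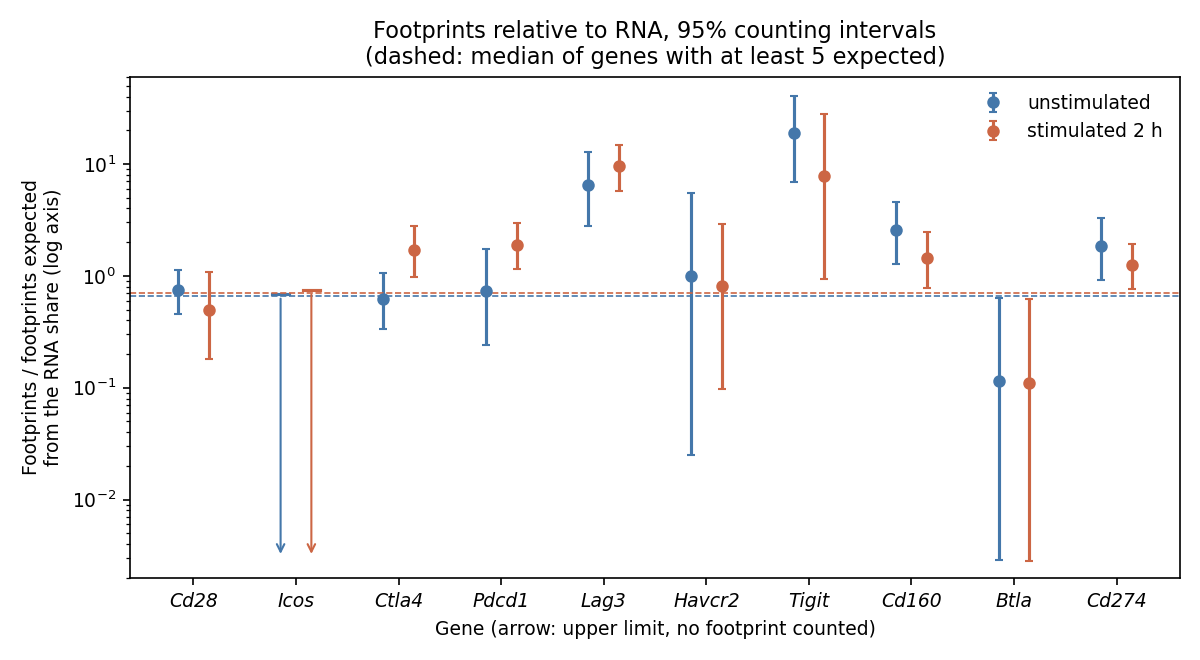
Footprints observed over footprints expected from the RNA share (y axis, log axis) for the 10 genes (x axis), unstimulated (blue) and stimulated (orange), with 95% exact Poisson intervals for counting error. Dashed lines are the medians of genes with at least 5 expected footprints, 0.657 and 0.707. Lag3 and Tigit lie above the lines in both states and Btla below them. Icos, with no footprint, is shown by arrows from its upper limits of 0.681 and 0.741, which lie just above the lines.

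Genes around these receptors were taken from 5 lists. Footprint numbers given for them are sums over 3 unstimulated and 2 stimulated libraries, without a test or interval. Of 15 ligand genes, 3 rose, 0 fell and 12 did not pass (edgeR, adjusted over all genes), with a median log2 change of 0.39. Over all genes tested 3.58% were called higher and 4.68% lower, and the median was 0.39 as well. Tnfsf14, which encodes LIGHT, a ligand of the HVEM receptor that Btla and Cd160 products also bind, rose from 74.8 ± 4.52 to 411 ± 114 CPM (log2 2.46 ± 0.234, edgeR adjusted p = 1.06e-04). It had 2 footprints in the unstimulated and 31 in the stimulated libraries. Pdcd1lg2 encodes PD-L2, the other ligand of PD-1, and lies 22823 bases from Cd274 with 0 annotated genes between. It rose from 9.33 ± 1.14 to 19.7 ± 3.49 CPM (log2 1.08, edgeR adjusted p = 0.00265) and had 1 footprint before and 0 after stimulation. Cd80, a ligand of CD28 and CTLA-4, rose from 51.5 ± 3.90 to 91.3 ± 15.3 CPM (log2 0.83, edgeR adjusted p = 0.0142). It had 5 footprints in the unstimulated and 0 in the stimulated libraries. None of the 15 ligand genes had enough footprints for the filter on low counts. The call on Cd80 was lost without unstimulated replicate 3 (edgeR adjusted p = 0.263), stimulated replicate 1 (0.210) or stimulated replicate 2 (0.277). It was also lost with DESeq2 (0.122), RLE scaling (0.130), TMM without the 4 genes of large share (0.0559) and no filter on low counts (0.0853).

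Of 30 other costimulatory or inhibitory receptor genes, 6 rose, 3 fell and 21 did not pass, with a median of -0.26. Of all genes tested, 3.58% were called higher and 4.68% lower, with a median of 0.39 that depends on the scaling and filter. Tnfrsf4, which encodes the costimulatory receptor OX40, rose from 9.77 ± 0.661 to 39.8 ± 10.7 CPM (log2 2.02, edgeR adjusted p = 9.93e-05), and Tnfrsf9, which encodes 4-1BB, from 229 ± 20.3 to 711 ± 165 CPM (log2 1.64, edgeR adjusted p = 0.00127). Crtam, a receptor of activated CD8 T cells, rose from 72.4 ± 5.21 to 262 ± 53.7 CPM (log2 1.86, edgeR adjusted p = 3.02e-04), and Slamf1 from 133 ± 10.2 to 410.3 ± 104 CPM (log2 1.63, edgeR adjusted p = 0.00133). Each of these 4 log2 changes was larger than that of Cd274, the largest rise among the 10 genes. Footprints went from 19 to 42 for Tnfrsf9, 8 to 22 for Slamf1, 2 to 9 for Crtam and 0 to 3 for Tnfrsf4 between the unstimulated and stimulated libraries. Cd200 and Tnfrsf18 were the others that rose, with edgeR adjusted p-values of 5.40e-04 and 0.0487. Lair1, Klrd1 and Entpd1 were those that fell (2.55e-04, 0.0419 and 0.0256), so that Tnfrsf18 and Klrd1 lay near the threshold.

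Among 25 signalling genes downstream of these receptors, 0 rose, 3 fell and 22 did not pass. Their median was -0.23, against 0.39 over all genes tested, of which 3.58% were called higher and 4.68% lower. Pik3r1, the regulatory subunit of the kinase that CD28 recruits, fell from 238 ± 4.32 to 98.0 ± 18.3 CPM (log2 -1.28, edgeR adjusted p = 0.00237), close to the change of Cd28 itself. Its footprints went from 5 to 0. Carmil2, an adaptor needed for CD28 signals, fell by 0.68 on the log2 scale (edgeR adjusted p = 0.0393). It had 2 footprints in the unstimulated and 4 in the stimulated libraries, too few for a test. Leaving out any 1 of unstimulated replicates 1 and 3 and stimulated replicates 1 and 2 ended the call, with edgeR adjusted p-values of 0.120 to 0.203. Of 7 genes of factors that degrade messages, 0 rose and Zfp36l2 fell, from 172 ± 17.2 to 72.6 ± 18.2 CPM (log2 -1.25, edgeR adjusted p = 0.00446), and the median was 0.31. Zfp36l2 footprints went from 28 to 17.

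Of 21 transcription factor genes tied to these receptors, 7 rose, 2 fell and 12 did not pass. Their median was 0.56, against 0.39 over all genes tested, of which 3.58% were called higher and 4.68% lower. Jun and Fos, subunits of AP-1, rose from 35.2 ± 3.84 to 166 ± 50.4 CPM (log2 2.24, edgeR adjusted p = 2.05e-04) and from 73.8 ± 5.91 to 232 ± 56.4 CPM (log2 1.65, edgeR adjusted p = 9.32e-04). Irf4 rose from 566 ± 29.7 to 1921 ± 459 CPM (log2 1.76, edgeR adjusted p = 9.70e-04). Bcl6, a repressor, fell from 75.9 ± 2.41 to 9.95 ± 1.45 CPM (log2 -2.93, edgeR adjusted p = 2.35e-06), and its footprints went from 8 to 0. Footprints went from 1 to 21 for Fos, from 2 to 17 for Jun and from 20 to 41 for Irf4. Counts per list depended on the setting. Over all settings the higher calls ran from 2 to 7 for ligands, 5 to 8 for other receptors, 0 to 6 for signalling genes, 5 to 11 for transcription factors and 0 to 6 for decay factors. Leaving aside the setting with 1 stimulated library, the lower calls ran from 0 to 5, 1 to 17, 1 to 19 and 2 to 7 in the first 4 lists. They stayed at 1 in the last. These upper ends were reached without unstimulated replicate 2, where 6173 of all 19219 genes tested were called lower. The plot of RNA change by list sets these genes beside the 10.

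**Figure D5:**
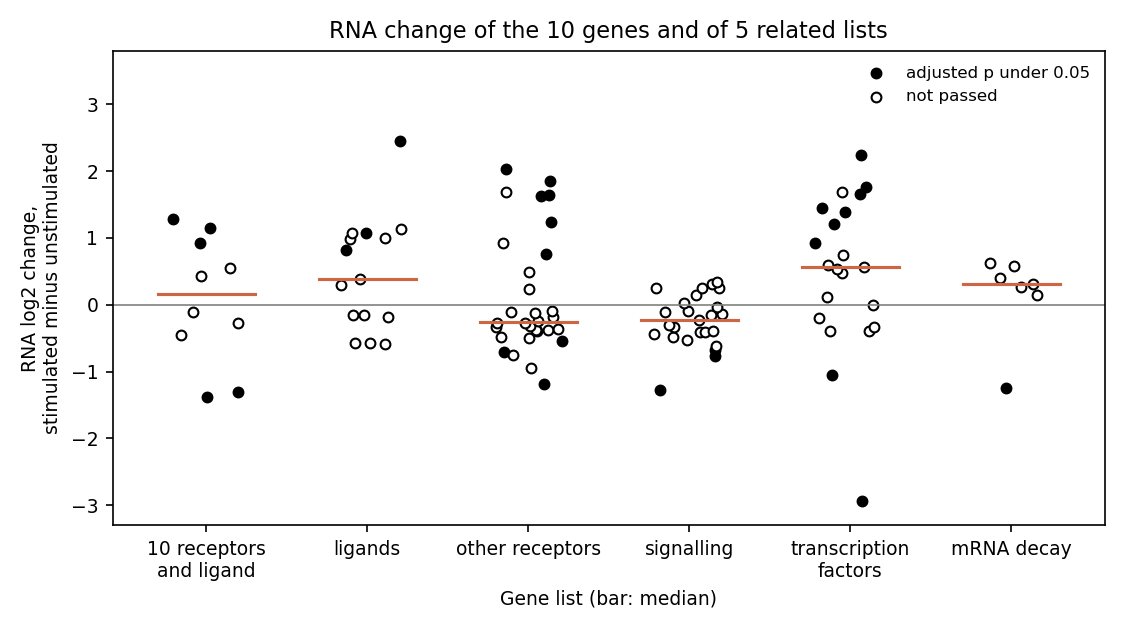
Log2 change in RNA (y axis, stimulated minus unstimulated) of each tested gene in the set of 10 and in 5 related lists (x axis). Filled points passed an edgeR adjusted p of 0.05, open points did not, and the bar is the list's median. Medians run from -0.26 for other receptors to 0.56 for transcription factors, against 0.39 over all genes tested. Bcl6 at -2.93 is the lowest point.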

How the data were processed

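The authors deposited unnormalized whole-number read counts for the coding sequence of each gene, in 6 RNA and 5 footprint libraries of mouse OT1 cells. A stimulated footprint replicate 1 was not analysed here. The aligner was STAR 2.5 and the build mm10 (GRCm38), per the submitters' processing notes. The counting tool, annotation release, strand handling and read filters are not given in the sources used here. The series table and the library files differed in 0 values, and no 2 replicates agreed within sampling noise. Symbols were found for 21838 of 21957 genes.

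Counts were fitted in R 4.3.3 by edgeR 4.0.16 with its quasi-likelihood test (two-sided, TMM, minimum count 10, minimum total 15), RNA and footprints apart, and p-values were adjusted by Benjamini-Hochberg over all genes tested. Efficiency was the interaction of assay and stimulation over 11 libraries. The prior count of 2 applies only to the log2 levels behind the correlations between RNA libraries. Expected footprints left Gm10800, Gm10801, Gm20594 and Lars2 out of both totals. Footprint depth limits the precision, and intervals (95%) cover counting error only.

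The 10 genes and all lists were chosen with earlier results of these data known. All 10 are named. From each list of related genes, up to 4 with an adjusted p under 0.05 and the largest change are named with values, except 1 that is not reported here. Other names were chosen after their values were seen. Alternatives were DESeq2 1.42.0, limma 3.58.1 (voom), other scalings and filters, the replicate number as a block and each library left out. Scaling on genes of at least 10 CPM and leaving out 3 libraries address unequal background. Levels per coding length were planned and not analysed here.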

Additional observations from a re-analysis of the deposited data

How the results depend on the processing

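The direction of the RNA change of each of the 10 genes was the same in all 16 alternatives. Counts of calls were less stable. The 3 higher calls became 2 with DESeq2, RLE scaling or no filter, where Cd160 was lost, and 4 with limma voom or library totals. They became 5 with TMM on genes of at least 10 CPM, 5 with a filter at a mean of 50 counts and 5 without the 3 libraries of most background, and ran from 1 to 4 when each library was left out in turn, 1 being without stimulated replicate 2. The 2 lower calls became 5 without the 3 libraries and ran from 2 to 5 when each library was left out, 5 being without unstimulated replicate 2. Over all genes, calls were fewest without stimulated replicate 2, 283 higher and 300 lower of 19142 tested. They were most without unstimulated replicate 2, 6851 and 6173 of 19219. DESeq2 gave 353 and 2559 of 21427, limma voom 1867 and 1520 of 18886, and no filter 410 and 1007 of 21427. The filter at a mean of 50 gave 2287 and 2645 of 12611, and TMM on genes of at least 10 CPM 3152 and 2928 of 18886. With a replicate block 3 of the 10 genes were higher and 2 lower, and over all genes 1236 and 1168. Deviations from the group mean correlated at -0.40, 0.30 and 0.62 between same-numbered RNA libraries over 8494 genes. Between unlike-numbered ones they correlated at -0.69 to 0.57. With 3 libraries per state, which also differ in background, these values cannot tell whether the number pairs the libraries. The block changed no call on the 10 genes. Pdcd1 also passed without the 3 libraries (adjusted p = 0.00747). Efficiency of Cd28 turned to 0.28 by limma voom (adjusted p = 0.864). No gene of the set was called in footprints or efficiency in any alternative that tested it. Only DESeq2 and the fit with no filter tested 9 of the 10, and the others tested at most 2. Cd28 could not be fitted with the filter at a mean of 50 or without unstimulated footprint replicate 2 or 3. Without unstimulated footprint replicate 1 its footprint change was -2.35, at an unadjusted p under 0.05 (edgeR adjusted p = 0.142). The cause of these changes was not tested. Footprint depth, 85433 in all, limits most statements on footprints.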
